A study of Mus musculus with 11 samples.

Results

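A set of 10 transcription factor genes that set limb type or mark limb mesenchyme were followed by name through RNA-seq counts of mouse forelimb buds: Tbx5, Tbx4, Pitx1, Tbx15, Tbx18, Shox2, Prrx1, Prrx2, Sall1 and Sall4. They are 10 of 47517 gene names in the table. The filter on low counts kept 15821 genes for testing, among them 9 of the 10, and Pitx1 did not pass it. Forelimb buds came from C57BL/6 embryos at E10.5, in 4 litters (A to D), each with both genotypes. The 5 control embryos were Gmnn +/f; Prx-Cre, with 1 floxed and 1 wild-type Gmnn allele, and the 6 mutant embryos were Gmnn f/f; Prx-Cre, with both alleles floxed. All embryos thus carried the Cre transgene and at least 1 floxed allele, and no embryo without Cre was analysed here. Gmnn encodes Geminin, an inhibitor of the replication licensing factor Cdt1, and the title of the series asks about its part in Hox gene regulation and limb patterning. Controls 1 and 2 were littermates of mutants 1 and 2 (litter A). Control 3 was matched by mutant 6 (litter B), control 4 by mutant 5 (litter C), and control 5 by mutants 3 and 4 (litter D).

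As background, the T-box factor Tbx5 starts the forelimb bud by switching on Fgf10 in the lateral plate mesoderm, and its relative Tbx4 serves the hindlimb, where the homeodomain factor Pitx1 gives hindlimb character. Prrx1 and Prrx2 are paired-type homeodomain factors of limb and craniofacial mesenchyme, and a Prrx1 enhancer drives the Prx-Cre transgene in limb mesenchyme and not in the overlying ectoderm. Shox2 is a homeodomain factor needed for the proximal limb segment, Tbx15 and Tbx18 are T-box factors of mesenchyme at the girdle and trunk, and Sall1 and Sall4 are zinc finger factors, of which Sall4 acts with Tbx5 in the forelimb.

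The libraries held 14721181 to 19733288 counts. Gmnn, the check of the labels, stood at 139.3 to 238.9 CPM (counts scaled to the TMM-adjusted library total) in controls and 99.5 to 137.7 CPM in mutants (log2 fold change -0.67, SE 0.10, edgeR adjusted p 0.029). Gmnn still passed without control 1, control 5 or mutant 2, and did not when any of the other 8 libraries was left out (edgeR adjusted p up to 0.128). Some libraries stood apart. Control 5 was lowest in the summed level of 5 distal Hox genes (18.2 CPM, against 33.2 to 137.7 CPM in the rest). Control 2 was highest in 8 heart genes (193.3 CPM, against 4.53 to 48.3 CPM). Mutant 2 was highest in 6 genes of decidua and placenta (469.97 CPM, against 1.09 to 29.4 CPM). The heart and decidua lists were chosen after their values were seen. An index of transcripts with long T runs, the mean log2 CPM of genes with long runs minus that of genes with short ones, was 1.86 to 2.30 in controls and 1.53 to 2.11 in mutants. The labels name each library by litter and embryo number.

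The sequence around the start site of Prrx1 is shown because that gene's control region drives the Cre of every embryo here, and that of Shox2 because, of the 9 tested genes, Shox2 and Tbx4 had the highest SD of log2 CPM within genotypes (0.82 each). Each is given as 250 bases before to 50 bases after the RefSeq start (build GRCm38.p6), 5′ to 3′ on the gene's strand. Capitals mark a homeodomain core, TAATTA, which is its own reverse complement, and the letters of the TATA box, TATAAA. Both were searched on either strand.
Prrx1, chr1:163313601-163313900, minus strand: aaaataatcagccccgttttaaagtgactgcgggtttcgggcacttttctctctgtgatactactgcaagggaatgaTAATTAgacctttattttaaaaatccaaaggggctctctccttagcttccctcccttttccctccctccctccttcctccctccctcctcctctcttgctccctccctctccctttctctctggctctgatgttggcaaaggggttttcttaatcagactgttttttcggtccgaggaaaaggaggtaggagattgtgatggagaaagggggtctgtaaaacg
Shox2, chr3:66981722-66982021, minus strand: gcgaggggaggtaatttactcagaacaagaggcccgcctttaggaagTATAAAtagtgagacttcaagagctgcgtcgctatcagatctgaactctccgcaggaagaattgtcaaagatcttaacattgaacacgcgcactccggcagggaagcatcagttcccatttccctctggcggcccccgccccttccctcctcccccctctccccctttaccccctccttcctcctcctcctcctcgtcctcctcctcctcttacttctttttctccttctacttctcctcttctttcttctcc
The Prrx1 window holds TAATTA once, where 5.29% of 32851 such windows over all genes hold it. The Shox2 window holds TATAAA once, at -203 from the start site, where 13.6% of windows hold it on either strand. The Tbx4 window, not shown, also holds it once, on the opposite strand at -85. Whether either match acts as a TATA box was not tested. The T-box half-site AGGTGT, searched on both strands and found in 13.7% of windows, was not in either window shown. RefSeq windows were matched for 6 of the 10 genes.

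Levels of different genes were compared within libraries per exon length, as CPM divided by exon length in kilobases (RPKM). By mean level the set formed 3 tiers. Prrx2 (mean over the 11 libraries 23.3 RPKM), Prrx1 (22.7), Shox2 (21.0), Sall4 (18.5) and Tbx5 (18.2) were high and close together. Neighbours in that order kept it in only 5 or 6 of the 11 libraries, so that their means do not separate them. Below them by mean came Tbx15 (10.6), Tbx18 (5.05) and Sall1 (3.39). Each step, from Tbx5 to Tbx15, from Tbx15 to Tbx18, from Tbx18 to Sall1 and from Sall1 to Tbx4, held in all 11 libraries. The first tier was not wholly above Tbx15 in every library. Tbx15 was above Prrx2 and Sall4 in control 3, above Shox2 in mutant 4 and above Sall4 in mutant 6. The hindlimb genes were lowest, Tbx4 at 0.780 and Pitx1 at 0.219 RPKM, with Tbx4 above Pitx1 in 10 of 11 libraries and control 2 the exception.

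**Figure D1:**
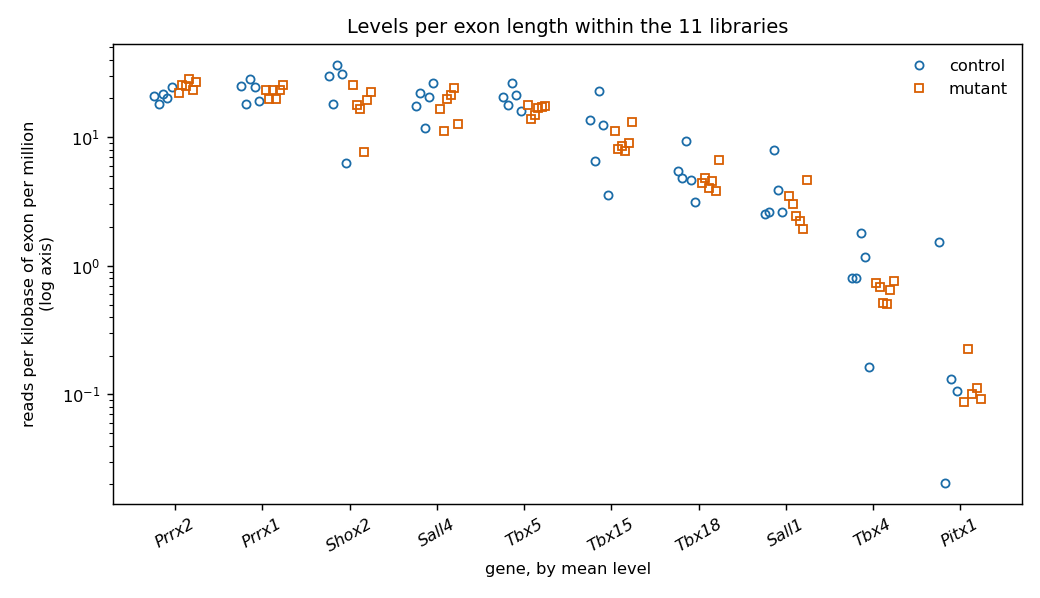
Level of each gene in RPKM (log axis) in the 5 control and 6 mutant libraries, genes ordered by mean level; each point is a library, and Pitx1 values of 0 (control 1 and mutant 5) cannot be drawn. Prrx2, Prrx1, Shox2, Sall4 and Tbx5 overlap, and Tbx4 and Pitx1 lie at the bottom.

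No gene of the set passed the test of mutant against control. With edgeR's quasi-likelihood test, 0 of the 9 tested had an adjusted p under 0.05, where 2.18% of all 15821 genes did (0.702% higher and 1.48% lower in mutants, or 111 and 234 genes; with upper-quartile scaling 360 genes, of which 205 were lower). At an unadjusted p under 0.05 there were 2 of the 9, Tbx5 and Prrx2, against 21.4% of all genes. DESeq2 also called 0 of the 9, where it called 1194 of all 15821 genes (DESeq2 adjusted p 0.0677 for Tbx5 and 0.0774 for Prrx2). With limma-voom 0 of the 9 were called, against 439 of all 15821 genes. The ranges of the 2 genotypes overlapped for all 10 genes, and 2.59% of all tested genes had ranges that did not overlap. The fitted log2 fold change was below 0 for 7 of the 9 and above 0 for 2, with a median of -0.13, against 0.00 over all tested genes. Forelimb buds are bulk tissue, so that fewer cells of a type and less RNA per cell cannot be told apart.

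**Figure D2:**
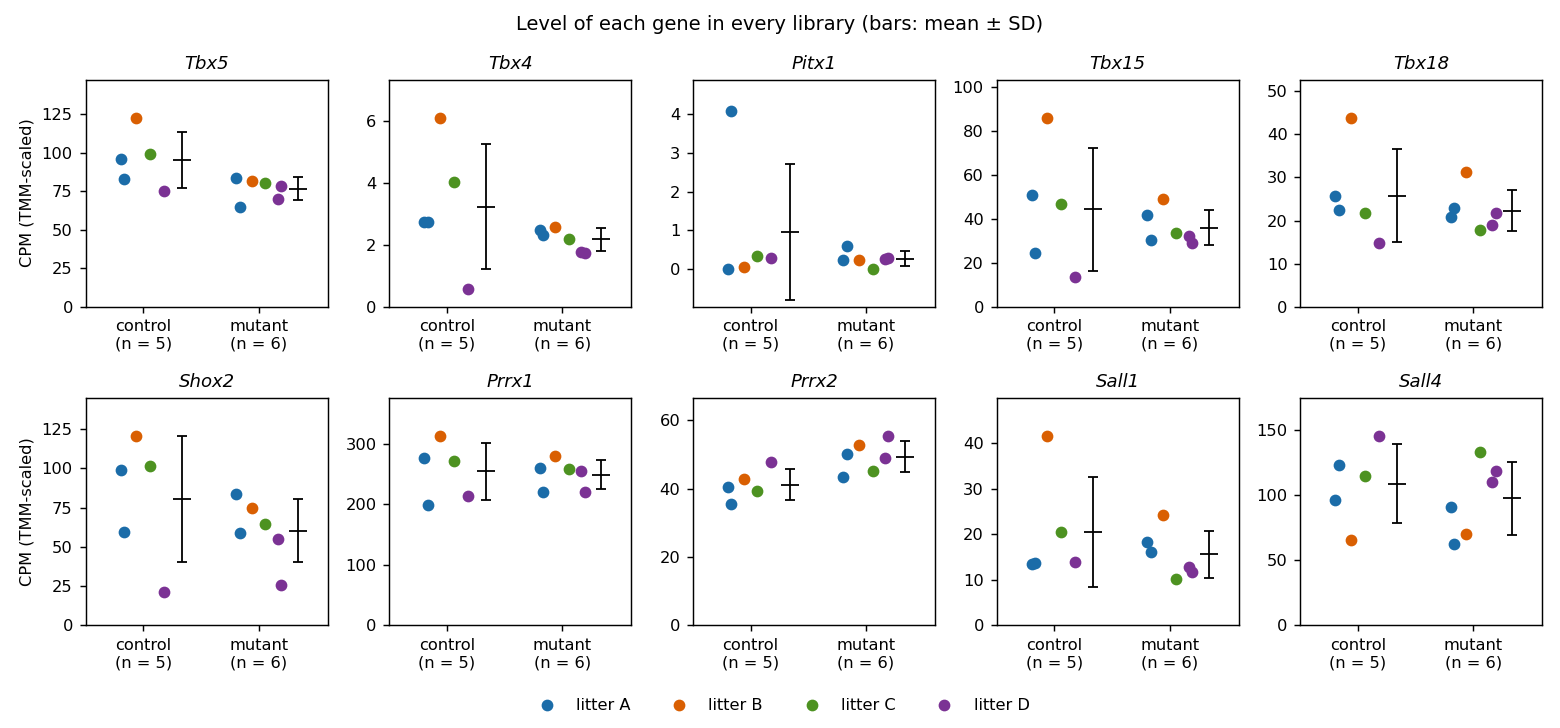
CPM of each gene in every library, one panel per gene, controls (n = 5) and mutants (n = 6) side by side; points are libraries coloured by litter and bars are mean ± SD. The genotypes overlap in each panel, and the control of litter B is the highest library in 7 of the 10 panels.

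Tbx5 (chr5:119832668-119885219, mm10, plus strand), the forelimb initiation factor, stood at 96.2, 82.7, 122.9, 99.4 and 75.3 CPM in controls 1 to 5. In mutants 1 to 6 it was 83.7, 64.8, 69.7, 78.7, 80.3 and 81.8 CPM. Controls 2 and 5 lay within the range of the mutants, and the other 3 controls lay above it. The means were 95.3 ± 18.3 CPM (SD, n = 5) and 76.5 ± 7.51 CPM (SD, n = 6). The log2 fold change was -0.28 (SE 0.10, 95% interval -0.49 to -0.07), which is 0.826 of the control level, with an edgeR adjusted p of 0.134. The mutant mean was lower in 4 of 4 litters, as it was for 13.5% of all tested genes (26% kept 1 direction, either way, in all 4). The differences in log2 CPM were -0.28, -0.59, -0.31 and -0.02 in litters A, B, C and D. Of the 72 arrangements of the labels within litters, 6 gave a difference as large (exact two-sided permutation p 0.0833). When the T-run index was added to the model, the log2 fold change was -0.06 (edgeR adjusted p 0.883). Per exon length, Tbx5 over Prrx1 within a library was 0.826 to 0.986 in controls. In mutants it was 0.646 to 0.849, which overlaps.

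The hindlimb factors were near the bottom of what was counted. Tbx4 (chr11:85886422-85916097, plus strand) had 8 to 112 reads per library. It stood at 2.74, 2.73, 6.11, 4.01 and 0.561 CPM in controls 1 to 5 and at 1.72 to 2.58 CPM in mutants (median 2.25). All 6 mutants lay between control 5, the lowest library, and the other 4 controls, so that the controls spread on both sides of the mutants. The log2 fold change was -0.26 (SE 0.32, 95% interval -0.96 to 0.45, edgeR adjusted p 0.70). Within libraries, Tbx5 was 14.6 to 97.7 times Tbx4 per exon length in controls and 20.4 to 33.2 times in mutants, with the 97.7 in control 5.

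Pitx1 (chr13:55825051-55836192, minus strand) had 79 reads in control 2 and 0 to 9 reads in each of the other 10 libraries. Control 2 thus had 4.07 CPM, with an exact 95% Poisson interval of 62.5 to 98.5 reads, and control 1 and mutant 5 had 0 reads. A floor of 3 counts puts their upper limits at 0.168 and 0.205 CPM, and the exact Poisson interval of 0 reads ends at 3.69 reads. The interval and the floor cover counting error only. Other listed genes were also highest in control 2. Isl1, a LIM homeodomain factor of hindlimb precursors and heart progenitors, stood at 11.8 CPM there and at 0.672 to 3.64 CPM elsewhere. Tbx20, a T-box factor of the heart, stood at 7.77 CPM there and at 0 to 0.755 CPM elsewhere. The summed level of 5 hindlimb identity markers (Tbx4, Pitx1, Isl1, Hoxc10 and Hoxc11) was 22.3 CPM in control 2, against 4.08 to 11.2 CPM in the other controls and 2.96 to 8.04 CPM in mutants, of which Isl1 and Pitx1 itself made up most in control 2. Hoxc10 was also highest there (3.66 CPM, against 0 to 2.62 CPM elsewhere). Tbx4, at 2.73 CPM, was lower there than in controls 3 and 4, and Hoxc11 had 0 reads there and at most 3 reads in any library. Heart genes in control 2 are given above, and the part of either tissue in the Pitx1 value was not tested. The forelimb identity markers Tbx5, Hoxc4 and Hoxc5 summed to 140.7 to 168.7 CPM in controls and 108.4 to 145.7 CPM in mutants. This was above the hindlimb sum in every library, though the 2 sums hold different numbers of genes and were not scaled by exon length. The highest control sum was in control 5, where Hoxc5 was highest (77.0 CPM) and Tbx5 was the lowest of the controls (75.3 CPM). For the forelimb markers the log2 fold change was below 0 for 3 of 3, with a median of -0.34. Over all 15821 tested genes 7799 were below 0. Each of the 3 had an unadjusted edgeR p under 0.05, as did 21.4% of all tested genes, and none passed the threshold. Hoxc5 itself had -0.34 (SE 0.15, edgeR adjusted p 0.232).

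Tbx15 and Tbx18 form a pair of related T-box factors. Tbx15 (chr3:99240381-99354259, plus strand) stood at 50.6, 24.5, 86.1, 46.5 and 13.3 CPM in controls 1 to 5 and at 29.0 to 49.1 CPM (median 32.9) in mutants. Control 5 and control 2 lay below all mutants and controls 1 and 3 above them. The log2 fold change was -0.03 (SE 0.26, 95% interval -0.60 to 0.54, edgeR adjusted p 0.96). Tbx18 (chr9:87702800-87731260, minus strand) stood at 25.8, 22.5, 43.9, 21.8 and 14.9 CPM in controls and at 17.8 to 31.2 CPM (median 21.3) in mutants. Both libraries of litter B, control 3 and mutant 6 (31.2 CPM), were the highest of their genotype for Tbx18 and for Tbx15. The log2 fold change of Tbx18 was -0.11 (SE 0.13, 95% interval -0.38 to 0.17, edgeR adjusted p 0.685). Of its exon bases, 20.6% are shared with an antisense transcript, D030062O11Rik, and the counting command sets no strand.

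Shox2 (chr3:66971727-66981771, minus strand) stood at 99.3, 59.6, 120.7, 101.8 and 20.8 CPM in controls 1 to 5. In mutants 1 to 6 it was 83.5, 58.7, 55.2, 25.5, 64.4 and 74.4 CPM. Control 5 and mutant 4, both of litter D, were the lowest library of their genotype, and controls 1, 3 and 4 lay above all mutants. The means were 80.4 ± 40.1 CPM (SD, n = 5) and 60.3 ± 20.0 CPM (SD, n = 6), and the log2 fold change was -0.13 (SE 0.26, 95% interval -0.70 to 0.44, edgeR adjusted p 0.819). The highest library had 5.80 times the lowest. The SD of log2 CPM within genotypes was 0.82, against a median of 0.15 over 3347 genes of similar level, of which 99.6% varied less. Tbx15 (SD 0.72) varied more than 99.4% of 4042 genes of similar level. Tbx5 and Prrx1, both with an SD of 0.21, varied more than 79.5% and 84.1% of genes of their level.

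The Prrx pair marks the limb mesenchyme itself. Prrx1 (chr1:163245119-163313710, minus strand), the most abundant of the 10 by CPM, stood at 275.7, 198.6, 312.8, 271.5 and 212.8 CPM in controls and at 219.4 to 280.5 CPM (median 257.0) in mutants. All mutants lay inside the range of the controls. The means were 254.3 ± 47.4 CPM (SD, n = 5) and 248.9 ± 24.3 CPM (SD, n = 6), the log2 fold change was 0.00 (SE 0.09, edgeR adjusted p 0.995), and the 95% interval of the ratio ran from 0.869 to 1.15 of the control level. The count sums all exons of the endogenous gene and does not measure Cre. Prrx2 (chr2:30834972-30881251, plus strand) stood at 40.6, 35.4, 42.8, 39.4 and 47.8 CPM in controls 1 to 5 and at 43.4, 50.1, 48.9, 55.4, 45.2 and 52.8 CPM in mutants 1 to 6. Controls 1 to 4 lay below all mutants, and control 5 lay within their range. The means were 41.2 ± 4.56 CPM (SD, n = 5) and 49.3 ± 4.52 CPM (SD, n = 6). The log2 fold change was 0.24 (SE 0.08, 95% interval 0.07 to 0.41), or 1.18 times the control level, with an edgeR adjusted p of 0.111. The mutant mean was higher in 4 of 4 litters (differences in log2 CPM of 0.30, 0.30, 0.20 and 0.12 in litters A, B, C and D), as for 12.5% of all tested genes. Of the 72 arrangements, 2 gave a difference as large (exact two-sided permutation p 0.0278, not adjusted for the 10 genes so tested, and the smallest the design allows is 0.0139). When the T-run index was added to the model, the log2 fold change was 0.15 (edgeR adjusted p 0.637). Whether the differences in Prrx1 and Prrx2 differ from each other was not tested. Per exon length, Prrx1 over Prrx2 was 0.789 to 1.30 in controls and 0.702 to 1.06 in mutants.

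In litter B, Sall1 was at its highest and Sall4 low. Sall1 (chr8:89027248-89044162, minus strand) stood at 13.4, 13.6, 41.6, 20.4 and 13.9 CPM in controls 1 to 5 and at 10.2 to 24.3 CPM (median 14.4) in mutants. Control 3 and mutant 6, of litter B, were the highest of their genotype. Sall4 (chr2:168748332-168767943, minus strand) stood at 95.97, 122.5, 65.2, 114.3 and 145.1 CPM in controls 1 to 5 and at 90.99, 61.9, 109.6, 117.96, 133.2 and 70.2 CPM in mutants 1 to 6. Control 3 was its lowest control and mutants 2 and 6 its lowest mutants. The log2 fold changes were -0.25 for Sall1 (SE 0.18, 95% interval -0.64 to 0.14, edgeR adjusted p 0.45) and -0.22 for Sall4 (SE 0.13, 95% interval -0.51 to 0.07, edgeR adjusted p 0.365). Per exon length, Sall4 over Sall1 was 1.49 to 9.92 in controls and 2.74 to 12.4 in mutants, with the lowest value of each genotype in litter B. Of the exon bases of Sall4, 9.50% are shared with the antisense transcript Gm14261.

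**Figure D3:**
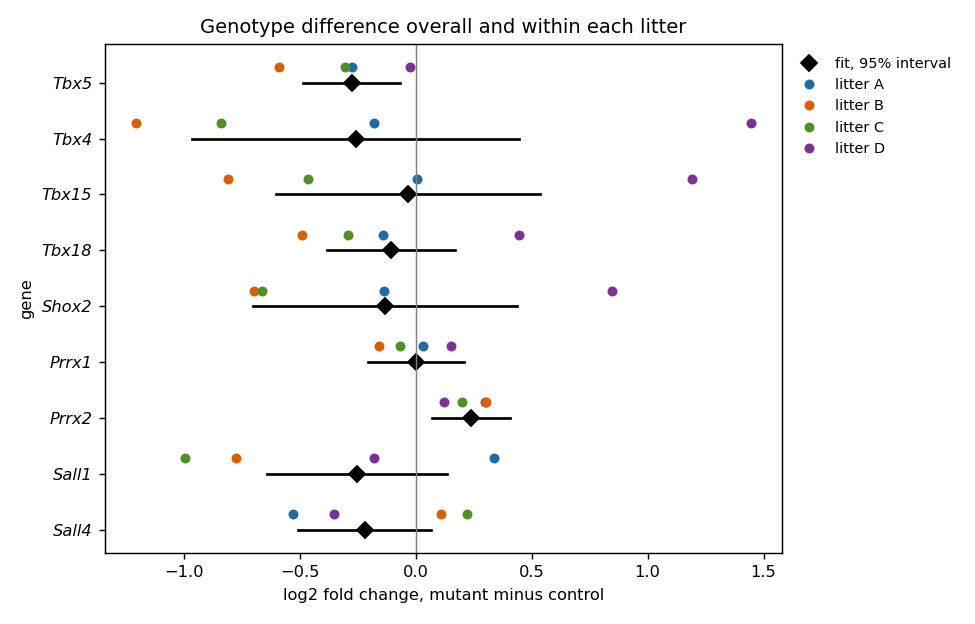
Log2 fold change, mutant minus control, of the 9 tested genes: diamonds and black lines are the edgeR fit and its 95% interval, and coloured points are the difference of mean log2 CPM within each litter. Tbx5 is below 0 and Prrx2 above 0 in all 4 litters, and Tbx4, Tbx15, Tbx18 and Shox2 are above 0 in litter D and below 0 in litters B and C.

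The difference between genotypes took both signs among the litters for 7 of the 9 genes, all but Tbx5 and Prrx2. Of all tested genes, only 26% kept 1 direction in all 4 litters, so that both signs were the usual outcome. For Sall1, which had the smallest interaction p (edgeR, unadjusted 0.0031), it was 0.34, -0.77, -0.99 and -0.18 in litters A, B, C and D. For Sall4 it was -0.53, 0.11, 0.22 and -0.35, and for Prrx1 0.03, -0.16, -0.07 and 0.15. Tbx4, Tbx15, Tbx18 and Shox2 were above 0 in litter D and below 0 in litters B and C. In litter D, where control 5 is the only control, the difference was 1.45 for Tbx4, 1.19 for Tbx15, 0.44 for Tbx18 and 0.85 for Shox2 on the log2 scale. In litter B the same genes gave -1.21, -0.81, -0.49 and -0.70, and in litter C -0.84, -0.46, -0.29 and -0.66. Litters B and C hold 1 library of each genotype, so that each of these differences rests on a single pair. The genotype by litter interaction passed for 0 of the 9 genes (edgeR quasi-likelihood test, smallest adjusted p 0.95), as for 0% of all genes. At an unadjusted p under 0.05 it gave 4 of the 9 (Tbx4, Tbx15, Tbx18 and Sall1), against 3.82% of all genes. Without litter D the log2 fold changes were -0.64 for Tbx4, -0.36 for Tbx15, -0.28 for Tbx18 and -0.43 for Shox2, and none passed.

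Differences between litters were also tested directly. In the same edgeR model, the litter terms passed for 0 of the 9 genes, where 0.0885% of all genes passed. At an unadjusted p under 0.05 there were 6 of the 9, Tbx18, Sall1, Sall4, Shox2, Tbx15 and Tbx4, against 13.5% of all genes. Tbx18 had the smallest edgeR adjusted p, 0.110, with 43.9 and 31.2 CPM in litter B and 14.9 to 21.6 CPM in the 3 libraries of litter D. Sall1 followed with an edgeR adjusted p of 0.117, and Sall4 with 0.154. Without the filter on low counts, 6 of the 9 passed the litter test and 3 passed the interaction test by edgeR. Over all 29256 genes then tested, 1583 and 438 were called.

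Controls 3 and 5 often stood at the ends of the range. Control 3 was the highest of the 11 libraries for 7 of the 9 tested genes (all but Prrx2 and Sall4), where it was highest for 14.2% of all tested genes. Control 5 was lowest for 4 of the 9 (Tbx4, Tbx15, Tbx18 and Shox2) and highest for Sall4, where it was lowest for 11.8% of all tested genes. Relative to the mean of the other controls on the log2 scale, control 5 lay at -2.48 for Tbx4, -2.14 for Shox2, -1.82 for Tbx15 and -0.87 for Tbx18. For Tbx5 it lay at -0.40, for Prrx1 at -0.30, for Prrx2 at 0.28 and for Sall4 at 0.58. In that library 6.19% of all tested genes lay below -1. This was the largest such share of the 11 libraries, each set against the others of its genotype (1.97% to 4.19% elsewhere).

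Other genes that mark developmental time and distal limb had high or low levels in these libraries. Lin28a, an RNA-binding protein of early embryos whose level drops as development goes on, was 120.7 CPM in control 5, 101.9 CPM in mutant 4 and 11.6 and 23.4 CPM in control 3 and mutant 6. Trim71, an RNA-binding protein of early embryos, was 493.4 CPM in control 5, 392.7 CPM in mutant 4, 233.8 CPM in control 3 and 274.9 CPM in mutant 6. Its highest library was mutant 5 (497.5 CPM) and its lowest was mutant 2 (190.2 CPM). Both were chosen after their values were seen. The distal gene Hoxd13 went the other way, with 35.98 CPM in control 3, 28.3 CPM in mutant 6, 6.66 CPM in mutant 4 and 3.15 CPM in control 5. The embryos were matched for somite number, per the design text, and no somite count of a single embryo is given in the labels. The part of embryonic time in these levels was not tested. Other cell types were also measured as sums of their markers. All 12 surface ectoderm markers had reads, with 234.2 to 413.6 CPM in controls and 258.3 to 447.5 CPM in mutants. All 8 muscle precursor markers had reads in some library, though 2 of them had none in others. Their sum was 82.0 to 122.8 CPM in controls and 71.3 to 141.3 CPM in mutants. All 8 endothelial markers had reads, with 210.7 to 330.2 CPM and 207.99 to 320.5 CPM. The 8 macrophage markers summed to 2.52 to 33.0 CPM and 8.73 to 41.96 CPM, with control 5 lowest and control 3 the highest control. The 10 red cell markers summed to 13133 to 33700 CPM in controls and 16450 to 57418 CPM in mutants. Mutant 2 was the highest mutant, and control 2 was the highest control and lay above all the other mutants. The 7 neural crest and Schwann precursor markers summed to 8.78 to 15.9 CPM and 6.24 to 12.6 CPM. The 8 neural tube markers summed to 34.9 to 59.1 CPM and 26.4 to 55.0 CPM. Tubb3 alone made up nearly all of that sum in every library (34.8 of 34.9 CPM in control 1). It was the only neural tube marker to pass the filter on low counts, and Olig2 had no read. No gene of these lists passed the edgeR test. Fitted log2 fold changes were above 0 for 8 of 8 macrophage and 10 of 10 red cell markers (medians 0.66 and 0.61). They were below 0 for 4 of the 4 tested neural crest and Schwann precursor markers (median -0.45). Over all 15821 tested genes, 8022 were above 0 and 7799 below. All 5 distal Hox genes were tested, none passed, and their median was 0.62. The part of these cell types in the levels of the 10 genes was not tested.

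**Figure D4:**
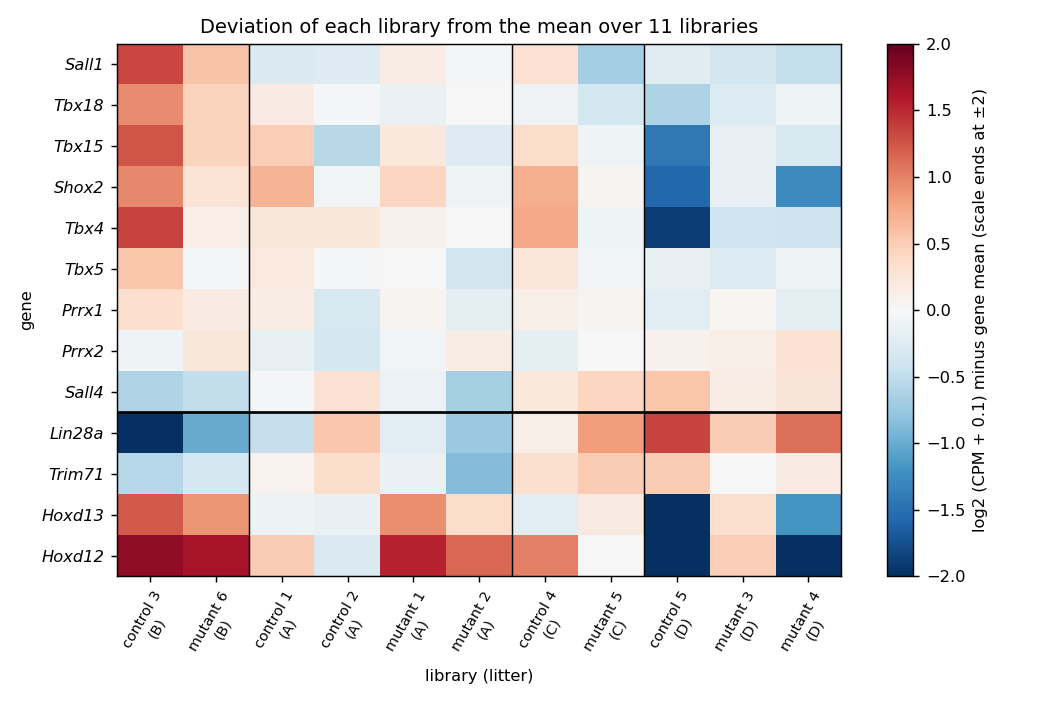
Deviation of each library from the mean over the 11 libraries, as log2 of CPM + 0.1, for the 9 tested genes (above the thick line) and for Lin28a, Trim71, Hoxd13 and Hoxd12 (below it); columns are libraries grouped by litter, and colours end at ±2. Control 3 is high and control 5 low for Tbx4, Tbx15, Tbx18 and Shox2, and Sall4 and Lin28a have the reverse order in these libraries.

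Relatives of the 10 genes and other genes of the limb programme were read against the shares over all genes, 2.18% past the threshold and 21.4% at an unadjusted p under 0.05. Of the 13 other T-box genes, 5 were tested and none passed. Those with the smallest p were Tbx3 (log2 fold change -0.14, edgeR adjusted p 0.37), a factor of limb margins, and Mga (-0.12, edgeR adjusted p 0.44), a T-box partner of Max. Of 11 other Sall, Pitx and Prrx relatives, 7 were tested and none passed, with 4 at an unadjusted p under 0.05. Alx4, an anterior limb homeodomain factor, had -0.53 (edgeR adjusted p 0.0945).

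Among 14 forelimb outgrowth genes none passed, 7 were higher and 7 lower, and the median log2 fold change was -0.03. Hoxc4 (-0.50, edgeR adjusted p 0.114) and Hand2 (0.37, edgeR adjusted p 0.161), a posterior limb factor, had the smallest p. Fgf10, the growth factor that Tbx5 is known to switch on, stood at 21.8 ± 2.20 CPM in controls (SD, n = 5) and 24.4 ± 6.15 CPM in mutants (SD, n = 6). Of 8 hindlimb genes 7 were tested and none passed; Gdf11 (-0.41, edgeR adjusted p 0.158), a growth factor of trunk and tail, and Isl1 (-0.86, edgeR adjusted p 0.405) had the smallest p. Of 11 genes of the scapula and body wall 9 were tested and none passed, and next to Alx4 the smallest p was that of Hoxc6 (-0.85, edgeR adjusted p 0.157).

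In the list of 19 other limb mesenchyme factors, 18 were tested and 2 passed, both lower in mutants, with a list median of -0.05. Meis1, a proximal limb homeodomain factor, fell by 0.63 on the log2 scale, with 186.6 ± 22.8 CPM in controls (SD, n = 5) and 122.4 ± 18.8 CPM in mutants (SD, n = 6; SE 0.10, edgeR adjusted p 0.029). Lhx9, a LIM homeodomain factor of distal mesenchyme, fell by 0.50, with 248.7 ± 32.1 CPM in controls (SD, n = 5) and 177.5 ± 24.4 CPM in mutants (SD, n = 6; SE 0.10, edgeR adjusted p 0.0406). Both still passed without control 5 or without mutant 2, and neither did when any of the other 9 libraries was left out (edgeR adjusted p up to 0.132 for Meis1 and 0.170 for Lhx9). When the T-run index was a covariate, the log2 fold changes were -0.38 for Meis1 (edgeR adjusted p 0.267) and -0.35 for Lhx9 (edgeR adjusted p 0.344).

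The genes most like each of the 9 were taken from log2 CPM over the 11 libraries after litter and genotype means were removed, over 9647 other genes (9648 for Tbx4). They are given as a description, since 6 residual degrees of freedom are left. For Tbx5 they were Dis3l2 (Pearson's r 0.994, Spearman's rho 0.982) and Wars2 (r 0.992). For Sall4 the nearest was Trim71 (r 0.982, rho 0.973, and r 0.966 without mutant 2 and control 2, the libraries farthest from the median). For Shox2 the nearest was Amotl1 (r 0.994, rho 0.991), and for Tbx15 it was Nrep (r 0.986, rho 0.936). For Sall1 they were St14 (r 0.985), Cgn (r 0.978) and Wnt3. For Prrx1 the nearest was Rprd1b (r 0.983) and for Prrx2 it was Fam162a (r 0.985). For Tbx18 it was Spice1 (r 0.976) and for Tbx4 Arfgap3 (r 0.976, and r 0.951 without control 5 and mutant 6). Differences among libraries other than those of litter and genotype were left in, and no p-value was computed.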

How the data were processed

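The deposited table holds whole-number counts of reads for each gene name, from 11 libraries. The authors counted with featureCounts 1.4.6-p4 against GENCODE M9 on mm10, with a minimum mapping quality of 10 and no option for strand, per the file headers. STAR 2.5.4b was the aligner, per the submitters' processing notes. The header command lists 12 alignment files and the design text speaks of 6 pairs, against 11 columns. Exon length in bases is a further column.

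Counts were fitted with edgeR 4.0.16 in R 4.3.3 (TMM scaling, filterByExpr, glmQLFit and glmQLFTest) on 15821 genes, with genotype and a litter block, Benjamini-Hochberg adjustment over all genes and a threshold of 0.05. Log2 CPM used a prior count of 2. Single genes were also tested by exact permutation of genotype within litters (72 arrangements). Litter is given in the titles, which name each library as a separate embryo. Across genes, deviations from the genotype means were correlated between each control and each mutant library. Over 8 same-litter pairs the median was 0.13 (-0.163 to 0.369). Over 22 pairs from different litters it was -0.02 (-0.333 to 0.171), so that the ranges overlapped. Within genotypes, every one of 25 pairs of libraries differed beyond sampling noise (chi-square over degrees of freedom at least 6.88). Alternatives used limma 3.58.1, DESeq2 1.42.0, other scalings and filters, and libraries or litters left out.

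The members, lists and tests were chosen with earlier results of these data known. All 10 members are named. From each other list the text names genes past the threshold, or otherwise the 2 with the smallest p at a mean of at least 1 CPM, and, chosen after their values were seen, Fgf10, Tbx20, Hoxc5, Hoxc10, Hoxc11, Lin28a, Trim71 and Hoxd13. A further gene that this rule names is not reported here. The markers of other cell types are given as sums. The nearest genes are from the 3 highest Pearson correlations among genes of at least 5 CPM. The T-run index contrasts 959 genes with a run of 18 or more T in a GENCODE M21 transcript with 4232 genes whose longest run is 5 or less.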

Additional observations from a re-analysis of the deposited data

Results flagged for a closer look

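Within each genotype, the highest and the lowest library of each of the 10 genes were compared with the others, in CPM and in log2 CPM. Dixon's 95% criterion picked out 4 of 80 such ends. Chance alone flags about 1 in 20 groups on a scale, and each group holds both a highest and a lowest end. The share of ends is thus not to be read against the share of groups. None of the 4 was picked out on both scales: Shox2 was on the log2 scale alone and the others in CPM alone. Pitx1 was 4.07 CPM in control 2, far above the other controls. Sall1 was 41.6 CPM in control 3, where the next control had 20.4 CPM. Tbx18 was 31.2 CPM in mutant 6, where the next mutant had 22.8 CPM. Shox2 was 25.5 CPM in mutant 4, far below the other mutants.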

How the results depend on the processing

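Of 25 alternatives to the test of mutant against control, 24 called none of the genes they tested, which were all 9 except that the removal of genes with long T runs takes out Tbx5 and Sall4. With no filter on low counts 1 passed (Tbx5, -0.28, edgeR adjusted p 0.0312), and then 6 passed the litter test and 3 the interaction test; the cause was not tested. Tbx5 kept its direction in all 24 alternatives that included it and Prrx2 in all 25. These alternatives are not all separate, since litters B and C hold 1 library of each genotype. Leaving out either library of such a litter, or the whole litter, gave nearly the same fit (Tbx5 -0.20 for litter B and -0.27 for litter C). The count over all genes was 345 of 15821, against 1566 of 29256 with no filter and 1194 of 15821 with DESeq2. It was 550 of 13403 with a filter of 1 CPM in 5 libraries. After removing genes with T runs of 15 or more it was 102 of 14014. It was 2 with the T-run covariate, and 9, 3, 1 and 163 without litters A, B, C and D. With a single library left out it was 1 to 846 (846 without control 5).

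With no replicate block 13 genes were called in all, and none of the 9 (edgeR adjusted p 0.145 for Tbx5 and 0.133 for Prrx2); Gmnn, Meis1 and Lhx9 were then at edgeR adjusted p 0.0549, 0.0549 and 0.0574; Prrx1 was then at -0.031.

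Log2 fold changes that changed sign were these, none past the threshold, and the cause was not tested. Prrx1 was -0.0035 with no filter, -0.0071 without litter A, -0.054 without litter D, -0.0028 after removing mitochondrial, haemoglobin and ribosomal RNA genes, and -0.012 after removing long T runs. Tbx15 was 0.0091 with upper-quartile scaling. Without litter B, Tbx4 was 0.021, Tbx15 0.17 and Shox2 0.014. Without litter C, Tbx15 was 0.079 and Shox2 0.0036. With the T-run covariate, Tbx4 was 0.040, Tbx15 0.57, Tbx18 0.024 and Shox2 0.39. With each library left out in turn, Tbx4 ran from -0.63 to 0.021, Tbx15 from -0.35 to 0.17, Prrx1 from -0.064 to 0.072 and Shox2 from -0.42 to 0.013. Tbx4 and Pitx1 are limited by depth, with as few as 8 and 0 reads in a library.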
